A study of Mus musculus with 14 samples.

Results

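The genes of the mouse major histocompatibility complex (MHC, called H2 in the mouse) and the genes that load peptides onto their products were followed in the kidneys of 14 female mice. Members were every gene whose GENCODE symbol starts with H2-, together with B2m, Tap1, Tap2, Tapbp, Psmb8, Psmb9, Psmb10, Cd74 and Ciita. The rule matched 58 genes, and 43 of these had a total above 10 counts over all libraries, out of 22339 genes with such a total. The other 15 stayed at or under 10 counts, and 10 of them had no count in any library. The 43 genes were divided into 2 classical class I heavy chains, 18 class Ib genes, 10 class II genes, 2 class II partners, 7 peptide loading genes and 4 pseudogenes or noncoding genes, and 39 of them lie on chromosome 17.

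All mice were wild-type females of the outbred CD-1 stock, examined at 18 weeks of age, and each gave 1 library from poly(A) RNA of a whole kidney. Term non-diabetic mice (T-ND, n = 4) and term diabetic mice (T-D, n = 4) were born naturally and stayed with their own mothers. Preterm non-diabetic mice (PT-ND, n = 3) and preterm diabetic mice (PT-D, n = 3) were delivered early by Caesarean section and raised by foster mothers that received a sedative, so early birth, surgical delivery and fostering cannot be told apart. Diabetic mice received streptozotocin (STZ), which destroys insulin-producing beta cells, and in the study some PT-D but no T-D mice had a second round of it. Which mice shared a litter was not given in the sources used here, and in an outbred stock mice can carry different MHC alleles.

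Class I molecules sit on almost every nucleated cell and present peptides made in the cytosol to CD8 T cells. Their heavy chain pairs with beta-2-microglobulin (B2m), the peptides are cut by the immunoproteasome (Psmb8, Psmb9, Psmb10), carried into the endoplasmic reticulum by the transporter Tap1/Tap2 and loaded with the help of tapasin (Tapbp). Class II molecules present peptides from endosomes to CD4 T cells, mainly on dendritic cells, macrophages and B cells, with the invariant chain Cd74 as their chaperone, H2-DM as the peptide editor and Ciita as the transactivator that switches the genes on.

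Promoters of both classes share an X box and a Y box, at which the transactivators Ciita and Nlrc5 act through a common set of bound factors. They are shown here because both classes carry this arrangement. The letters searched were ACNGATG (part of the X box) followed by ATTGG (the Y box, an inverted CCAAT), with 29 or 30 bases from one start to the other, on both strands, and the spacing was read from these promoters themselves. The pair was found in 13 of 32851 RefSeq promoter windows of 300 bases (0.0396%) and in 9 of the 27 member genes that had a window, namely H2-D1, H2-DMb1, H2-DMb2, H2-Eb1, H2-Eb2, H2-M3, H2-Q4, H2-Q6 and H2-Q7. Of the 8 members that were higher in PT-D vs PT-ND below, 5 had a window (H2-Q4, Tap1, Psmb8, Psmb9 and Psmb10), and H2-Q4 was the 1 whose window held the pair. A match is a description of letters and not a binding site. A kappa B motif, which marks the enhancer of class I genes, was found in 4.79% of all windows and in 8 of the 27 member genes. Capitals mark the X box part, the Y box and, near the left end of the class I and Ib sequences, the kappa B motif in 5 examples, 3 of class I or Ib and 2 of class II, from RefSeq on build GRCm38.p6 and all on the plus strand of chromosome 17 (H2-D1 chr17:35262913-35263042, H2-Q4 chr17:35379433-35379562, H2-Q6 chr17:35424667-35424795, H2-Eb1 chr17:34305704-34305832, H2-DMb1 chr17:34153025-34153154):
H2-D1: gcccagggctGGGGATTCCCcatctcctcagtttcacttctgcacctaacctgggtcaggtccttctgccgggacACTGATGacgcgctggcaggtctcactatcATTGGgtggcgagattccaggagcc
H2-Q4: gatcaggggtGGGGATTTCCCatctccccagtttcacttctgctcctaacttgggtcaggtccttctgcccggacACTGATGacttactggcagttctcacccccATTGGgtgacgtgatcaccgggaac
H2-Q6: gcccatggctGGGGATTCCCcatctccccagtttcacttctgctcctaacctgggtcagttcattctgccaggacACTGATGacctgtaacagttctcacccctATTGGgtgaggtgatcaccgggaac
H2-Eb1: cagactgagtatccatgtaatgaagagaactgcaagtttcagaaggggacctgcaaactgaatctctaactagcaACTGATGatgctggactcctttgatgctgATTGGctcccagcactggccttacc
H2-DMb1: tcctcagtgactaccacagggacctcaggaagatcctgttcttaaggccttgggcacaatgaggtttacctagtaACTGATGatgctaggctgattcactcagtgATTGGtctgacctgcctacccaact

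Libraries held between 16697246 and 28673176 counts on genes, with a median of 18765582, and markers of kidney epithelium were present in all of them. Reads that fell on more than 1 gene were left out when the tables were made and came to 6.86% to 8.09% of uniquely mapped reads. Levels are given as normalized counts, which are counts divided by a factor for the depth and composition of each library. A differentially expressed gene (DEG) passed 2 limits, an adjusted p under 0.05 and a log2 fold change of more than 1 in either direction, in edgeR's quasi-likelihood test, with Benjamini-Hochberg adjustment over all genes tested. The mice are separate animals, and in whole kidney RNA fewer cells of a type and less RNA per cell cannot be told apart. PT-D vs T-ND, T-D vs T-ND and PT-ND vs T-ND share the T-ND libraries, and the remaining pairs of groups share libraries as well.

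Per kilobase of exon, B2m had the highest mean level over the 14 libraries, at 7843 normalized counts per kilobase. The heavy chains followed with 3944 for H2-D1 and 2280 for H2-K1, and then Cd74 with 1570 and H2-Ab1, the beta chain of the I-A molecule, with 865. Among class Ib genes the highest means were 556 per kilobase for H2-Q4, 525 for H2-T23 and 507 for H2-T22.

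In PT-D vs PT-ND, the comparison of diabetic with non-diabetic preterm mice, 10 of the 43 members were DEGs, 8 higher and 2 lower, against 4.95% of all genes tested (2.96% higher and 1.99% lower). The 8 higher genes were Tap1, Tap2, Psmb8, Psmb9 and Psmb10 of the peptide loading group, the class Ib genes H2-Q4 and H2-T24, and Ciita. The 2 lower genes were H2-Ea, the alpha chain of the class II molecule I-E, and the class Ib gene H2-Q5. All 7 peptide loading genes had a positive log2 fold change (52.5% of all genes tested did), with a median of 1.07 beside a median of 0.05 over all genes tested, and 6 of them had no overlap between the groups, which 18.7% of all genes showed in the same direction.

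Tap1, a subunit of the peptide transporter, had 2971, 1283 and 3142 normalized counts in the PT-D libraries and 1114, 698 and 782 in the PT-ND libraries. All PT-D values were above all PT-ND values, although PT-D replicate 2 came close to them. The log2 fold change was 1.51 ± 0.31 (SE), with an adjusted p of 0.0128. Tap2, its partner subunit, had 1613, 877 and 1759 normalized counts in PT-D and 499, 408 and 534 in PT-ND, without overlap. Its log2 fold change was 1.56 ± 0.24 (SE), with an adjusted p of 0.0053, and Tap2 was a DEG in all 6 fits that left out 1 library.

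The 3 immunoproteasome subunits were DEGs too. Psmb9 had 1081, 551 and 1044 normalized counts in PT-D and 309, 274 and 451 in PT-ND, a log2 fold change of 1.37 ± 0.27 (SE) with an adjusted p of 0.0112. Psmb10 had 1938, 1144 and 1938 in PT-D and 775, 620 and 990 in PT-ND, a log2 fold change of 1.07 ± 0.23 (SE) with an adjusted p of 0.0162. Both were higher in every PT-D library than in any PT-ND library. Psmb8 had 1005, 469 and 727 in PT-D and 340, 231 and 504 in PT-ND, so 1 library of each group overlapped, and its adjusted p of 0.04995 lay at the threshold with a log2 fold change of 1.03. Psmb9 stayed a DEG in 5 of 6 fits with a library left out, Tap1 in 4, Psmb10 in 3 and Psmb8 in 2. The count of 10 DEGs became 4 without PT-ND replicate 2 and 6 without PT-ND replicate 3 or without PT-D replicate 3, and it was 3 when all 14 libraries entered 1 fit.

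Tapasin, the bridge between the transporter and the heavy chain, had 4597, 3148 and 5200 normalized counts in PT-D and 2173, 2374 and 2204 in PT-ND. Its log2 fold change of 0.94 (adjusted p of 0.0121) passed the p threshold but not the limit on fold change. H2-K1 stood in the same position, with 13422, 7749 and 10689 normalized counts in PT-D against 6329, 3424 and 6588 in PT-ND, a log2 fold change of 0.96 and an adjusted p of 0.0382. Counted by adjusted p alone, 12 members passed, beside 12.9% of all genes tested. The second heavy chain, H2-D1, had a log2 fold change of 0.54 (adjusted p of 0.158), and B2m had one of 0.49 (adjusted p of 0.114), with B2m levels of 21870, 14482 and 17731 in PT-D and 12967, 11171 and 14469 in PT-ND.

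**Figure D1:**
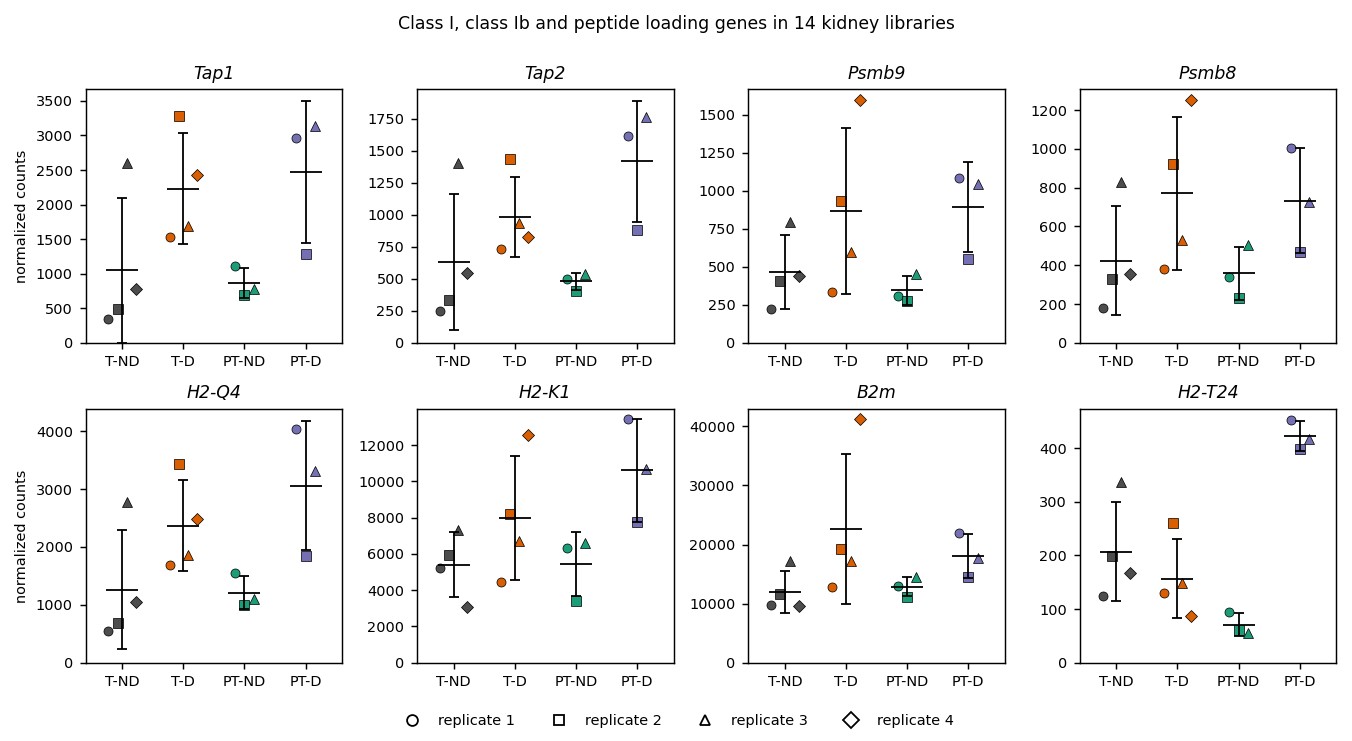
Normalized counts (vertical axis, from 0) of 8 class I, class Ib and peptide loading genes in the 4 groups, 1 point per mouse with its replicate number as the shape, and bars for the mean and SD. PT-D points lie above PT-ND points for each gene shown other than Psmb8, and T-ND replicate 3 lies above the other T-ND libraries for each gene shown.

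The T-ND group was uneven for these genes. Tap1 had 340, 491, 2596 and 772 normalized counts in T-ND, so that replicate 3 alone reached the level of the diabetic libraries. Tap2 showed the same, with 247, 331, 1406 and 544. T-D libraries had 1537, 3276, 1684 and 2430 normalized counts of Tap1 and 735, 1436, 932 and 829 of Tap2. In T-D vs T-ND none of the 43 members was a DEG in edgeR (0.0673% of all genes tested were) and 10 had an unadjusted p under 0.05 (11.8% of all genes), and DESeq2 called 2, H2-Ab1 and H2-M2. The log2 fold change was positive for 39 of the 43 members, beside 48.4% of all genes tested, and the median was 0.84 for peptide loading genes (0.47 without T-D replicate 4 and 1.275 without T-ND replicate 3) and 0.50 for the class I heavy chains (0.21 without T-D replicate 2). Without T-ND replicate 3, 3 members were DEGs in this comparison, which were Tap1, Tap2 and H2-Q4.

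PT-D vs T-ND gave 2 DEGs among the members in edgeR, H2-Q6 and H2-Ob, against 1.45% of all genes tested. DESeq2 gave 8 members, for which the share of all genes was not counted. Of the 43 members, 38 had a positive log2 fold change, beside 51.9% of all genes, and 9 had every PT-D library above every T-ND library, beside 12% of all genes. Peptide loading genes had a median log2 fold change of 0.81 (0.60 without T-ND replicate 1 and 1.31 without T-ND replicate 3). None of them was a DEG with all libraries of both groups. Tap1, for example, had a log2 fold change of 1.23 ± 0.62 (SE) with an adjusted p of 0.251. The count of DEGs rose to 15 without T-ND replicate 3 and fell to 0 or 1 in each of the other fits with a library left out. The share of all genes was not counted in those fits, so the 15 cannot be set beside one.

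H2-Q6, a class Ib gene next to H2-Q7, had 188, 171 and 324 normalized counts in PT-D and 52.3, 33.8, 6.29 and 29.02 in T-ND. The groups did not overlap, with a log2 fold change of 2.90 ± 0.51 (SE) and an adjusted p of 0.0279. H2-Ob, the beta chain of H2-O, which restrains the peptide editor H2-DM, had 49.3, 26.3 and 34.4 normalized counts in PT-D against 11.9, 10.05, 10.5 and 11.8 in T-ND, a log2 fold change of 1.71 ± 0.38 (SE) and an adjusted p of 0.0467. PT-ND libraries had 56.3, 28.3 and 16.2 normalized counts of H2-Ob, which overlapped with PT-D (log2 fold change of 0.12, adjusted p of 0.907). Leaving out each of the 7 libraries in turn, H2-Q6 was a DEG in 2 fits and H2-Ob in 1. H2-K1 and H2-D1 did not overlap between PT-D and T-ND either, with log2 fold changes of 0.97 (adjusted p of 0.0767) and 1.53 (adjusted p of 0.0698).

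Between the diabetic groups, PT-D vs T-D, edgeR found 0 DEGs among the members (0.193% of all genes tested were DEGs) and 7 members with an unadjusted p under 0.05 (22.3% of all genes), whereas DESeq2 called 2, H2-Eb1 and H2-T24. Peptide loading genes had a median log2 fold change of 0.06, equal to the median of 0.06 over all genes, with a range from -0.33 to 0.52. Their median was -0.19 without T-D replicate 1 and 0.32 without T-D replicate 4. Levels of B2m, Tap1 and the immunoproteasome genes overlapped between T-D and PT-D libraries. In PT-ND vs T-ND, edgeR again found 0 DEGs among the members (0.0809% of all genes tested were DEGs) and 11 members with an unadjusted p under 0.05 (10.7% of all genes), and DESeq2 called 2, H2-Q5 and H2-T24. Here the peptide loading genes had a median log2 fold change of -0.26, which was 0.30 without T-ND replicate 3. Class II genes had a median of 0.86, which was 0.35 without PT-ND replicate 1, and the value was positive for 10 of 10, beside 49.9% of all genes tested.

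**Figure D2:**
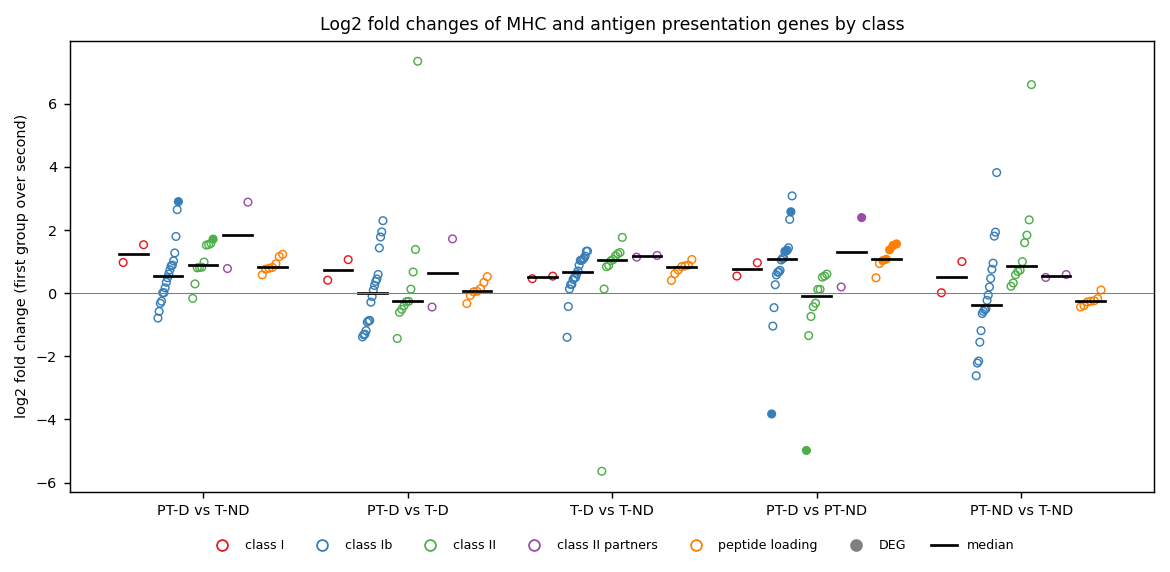
Log2 fold changes (vertical axis) of the members by class in 5 comparisons, 1 point per gene, filled where the gene was a DEG, with a bar at the median of each class. Filled points of the peptide loading genes occur only in PT-D vs PT-ND, where that class has a median of 1.07 and class II one of -0.10; the comparisons share libraries.

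H2-T24 (GRCm39 chr17:36314363-36331485), a class Ib gene of the T region, had the clearest separation of the 2 preterm groups. PT-D libraries had 452, 399 and 417 normalized counts and PT-ND libraries had 94.9, 61.1 and 55.4. The log2 fold change was 2.58 ± 0.24 (SE), with an adjusted p of 0.00084, and it was a DEG in all 6 fits with a library left out. In the term mice the order was not the same, with 130, 260, 149 and 86.2 in T-D and 125, 198, 337 and 168 in T-ND, and a log2 fold change of -0.42 (adjusted p of 0.664).

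The difference between the STZ effects in preterm and term mice was tested as an interaction over all 14 libraries, in which 2 members were DEGs against 4.45% of all genes tested. For H2-T24 the difference was 2.99 ± 0.50 (SE) on the log2 scale, with an adjusted p of 0.0114, and it passed in 14 of 14 fits with a library left out. The other was H2-Q5, at -5.00 ± 1.43 (SE) with an adjusted p of 0.0492, which passed in 3 of those 14 fits. H2-Q5 was near the detection limit in most libraries and had 11.5, 79.2 and 107 normalized counts in PT-ND against 10.9, 0 and 3.20 in PT-D. PT-ND replicates 2 and 3, where it was high, were also the libraries highest in H2-Ea, at 861 and 867. Its DEG call in PT-D vs PT-ND (log2 fold change of -3.83, adjusted p of 0.0303 in edgeR) was lost without PT-ND replicate 2 or 3 and without PT-D replicate 3. For Tap1 the interaction was 0.42 (adjusted p of 0.779) and for Tap2 0.92 (adjusted p of 0.392), so a different STZ effect on the transporter in preterm and term mice was not detected, and class II genes had a median interaction of -1.06 with none passing, which was -0.40 without PT-ND replicate 1 and -0.60 without T-D replicate 4.

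H2-Q4 (GRCm39 chr17:35598586-35604274), whose promoter is shown above, followed the peptide loading genes. PT-D libraries had 4036, 1836 and 3312 normalized counts, PT-ND had 1542, 996 and 1097, T-D had 1684, 3428, 1861 and 2484, and T-ND had 542, 690, 2782 and 1043. The high T-ND value was again replicate 3. In PT-D vs PT-ND the log2 fold change was 1.34 ± 0.27 (SE) with an adjusted p of 0.0127. The edgeR adjusted p was 0.0583 without PT-ND replicate 2, 0.0584 without PT-ND replicate 3 and 0.0874 when all 14 libraries entered 1 fit, so the call was lost in each. Across the 18 class Ib genes, 15 had a positive log2 fold change in this comparison, beside 52.5% of all genes, and the median was 1.07. For 6 of the 18 every PT-D library was above every PT-ND library, beside 18.7% of all genes. For 1, H2-Q5, every PT-D library was below every PT-ND library, beside 15.8% of all genes. H2-M3, which presents formylated peptides, H2-T10 and H2-T13 were among the 6 that were higher. Their log2 fold changes were 1.11, 1.32 and 1.36, with adjusted p values of 0.0595, 0.0704 and 0.0809. H2-T23, which encodes Qa-1, a ligand of natural killer cell receptors, had a smaller value of 0.66, with an adjusted p of 0.251.

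Class II genes had no common direction in the preterm mice. In PT-D vs PT-ND 5 of 10 class II genes had a positive and 5 a negative log2 fold change, with a median of -0.10, and none was higher as a DEG. The median was 0.39 without PT-ND replicate 1 and -0.37 without PT-ND replicate 3, and the difference from class I was not tested. H2-Ab1 had 2183, 1603 and 3016 normalized counts in PT-D and 3352, 1421 and 1480 in PT-ND, so the groups overlapped throughout (log2 fold change of 0.12, adjusted p of 0.846). H2-Aa, its alpha chain partner, had 1990, 1778 and 2508 in PT-D and 4322, 1792 and 2348 in PT-ND (log2 fold change of -0.43, adjusted p of 0.344). The widest value within PT-ND was replicate 1, which held the highest level of H2-Aa, H2-Ab1, H2-DMa, H2-DMb1, H2-DMb2 and Cd74 in that group.

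In the term mice 1 library stood apart for several class II genes. H2-Ab1 had 1609, 2703, 1952 and 6600 normalized counts in T-D and 1274, 1316, 1691 and 898 in T-ND, and T-D replicate 4 held more than any other library. Cd74 had 2932, 4254, 3425 and 11771 in T-D against 2067, 2261, 3701 and 1588 in T-ND. The same library held the highest level of 14 of the 36 members whose values were examined in full. In T-D vs T-ND the log2 fold change of H2-Ab1 was 1.29 ± 0.38 (SE) with an adjusted p of 0.248 in edgeR and 0.0331 in DESeq2, and that of Cd74 was 1.19 (adjusted p of 0.306). The class II median of 1.05 was 0.60 without T-D replicate 4. Several macrophage genes were high in the same library, with 1164 normalized counts of C1qa against 465 to 570 in the other T-D libraries and 1167 of C1qb against 471 to 511. The leukocyte gene Cd52 had 408 against 179 to 198. Other genes of these lists went the other way. Cx3cr1 at 2.57, Ptprc at 112 and Laptm5 at 127 normalized counts were lower in that library than in any other T-D library. The 8 macrophage markers summed to 4540 in T-D replicate 4, more than in any other library. Slc34a1, a proximal tubule gene, had 44727 normalized counts there, against 91526 to 97784 in the other T-D libraries. Umod, another kidney gene, was at 34753.5, its highest value in T-D. The library also had the fewest genes with a count, at 19589. The part of these differences in the class II values was not tested.

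H2-DM and H2-O act on the loading of class II molecules. H2-DMa had 185, 322, 239 and 847 normalized counts in T-D, 183, 120, 239 and 147 in T-ND, 298, 165 and 136 in PT-ND and 284, 176 and 453 in PT-D. Only T-D replicate 4 stood far from the rest, and no comparison of H2-DMa, H2-DMb1 or H2-DMb2 gave a DEG in edgeR. H2-Oa, the alpha chain of H2-O, stayed at or under 12.5 normalized counts in every library. H2-Eb2 stayed at or under 6.26.

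Ciita, the class II transactivator (chromosome 16), was a DEG in PT-D vs PT-ND with a log2 fold change of 2.39 ± 0.70 (SE) and an adjusted p of 0.0463. Its values were 184, 72.2 and 725 normalized counts in PT-D and 99.1, 46.4 and 40.4 in PT-ND, so the groups overlapped and 1 library held most of the PT-D mean. Ciita was a DEG in 3 of 6 fits with a library left out. Without PT-D replicate 3 the log2 fold change was 1.04 (adjusted p of 0.232), and the call was also lost without PT-ND replicate 2 or 3. The adjusted p of Ciita was 0.0506 with DESeq2, 0.0584 with edgeR's own filter on low counts and 0.0692 when all 14 libraries entered 1 fit. T-D libraries had 48.7, 236, 29.7 and 82.4 normalized counts of Ciita and T-ND libraries 34.5, 41.1, 79.6 and 20.4. The highest Ciita value did not go with the highest class II values, which were in T-D replicate 4.

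**Figure D3:**
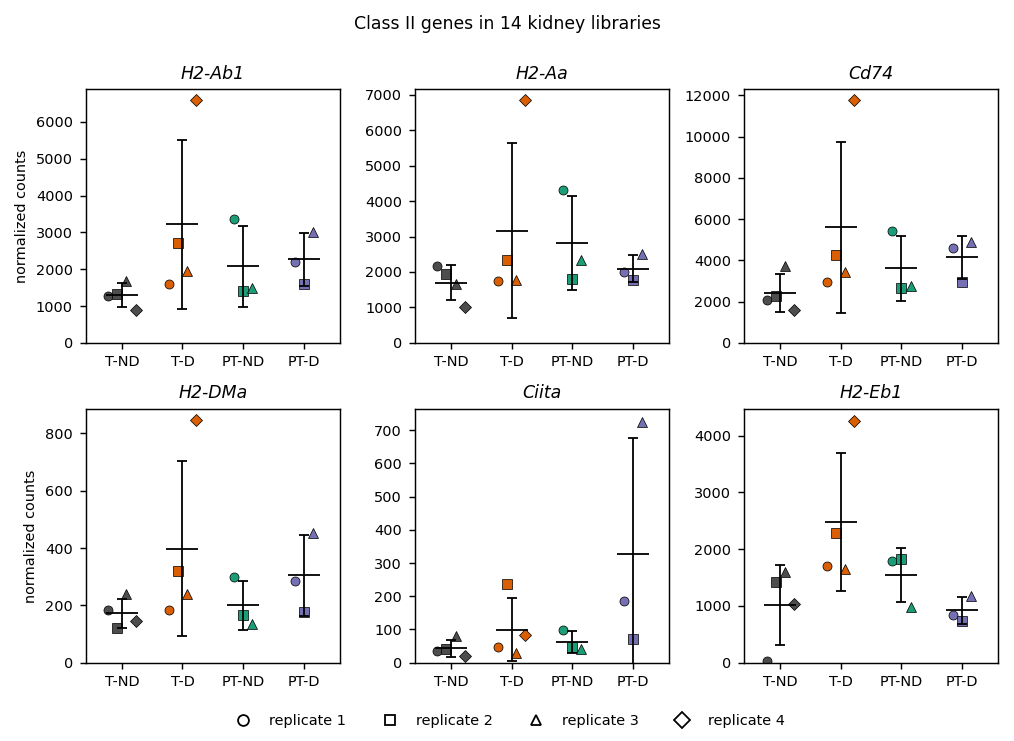
Normalized counts (vertical axis, from 0) of 6 class II genes in the 4 groups, 1 point per mouse with its replicate number as the shape, and bars for the mean and SD. T-D replicate 4 holds the highest value of H2-Ab1, H2-Aa, Cd74, H2-DMa and H2-Eb1, PT-D replicate 3 that of Ciita, and T-ND replicate 1 has almost no H2-Eb1; the lower SD bar of Ciita in PT-D ends at the axis.

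Several MHC genes were nearly absent from single libraries, in patterns that crossed the groups. H2-Eb1, the beta chain of I-E, had 29.7, 1428, 1603 and 1037 normalized counts in T-ND, so replicate 1 was far below the others. T-D had 1711, 2281, 1656 and 4254, PT-ND had 1797, 1825 and 988, and PT-D had 839, 739 and 1184. All PT-D values were under all T-D values, with a log2 fold change of -1.44 ± 0.32 (SE), an adjusted p of 0.0689 in edgeR and 0.00156 in DESeq2. As a ratio to H2-Ab1 within the same library, H2-Eb1 lay between 0.38 and 0.46 in PT-D, between 0.64 and 1.06 in T-D, between 0.54 and 1.29 in PT-ND and at 0.02, 1.09, 0.95 and 1.16 in T-ND. The ratio of Cd74 to H2-Ab1 ranged only from 1.57 to 2.19 over the 14 libraries.

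H2-Ea (GRCm39 chr17:34560926-34563618) was absent from most term libraries. It had 0 counts in all 4 T-D libraries and in 3 of 4 T-ND libraries, and 26.1 normalized counts in T-ND replicate 1, the library that lacked H2-Eb1. All 6 preterm libraries had counts, with 53.2, 861 and 867 normalized counts in PT-ND and 30.1, 3.76 and 23.2 in PT-D. A count of 0 allows up to 3 counts, and against that floor in each T-D library the PT-D mean was at least 5.76-fold higher. In PT-D vs PT-ND the log2 fold change was -4.98 ± 0.92 (SE), with an adjusted p of 0.00939, the lowest PT-ND value lay above the highest PT-D value, and H2-Ea was a DEG in all 6 fits with a library left out. PT-ND vs T-ND had an adjusted p of 0.0957. The reference strain C57BL/6 is known to carry a deletion at the start of H2-Ea that silences it, whereas other haplotypes express the gene.

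Another set of genes was low in 3 term libraries from both groups. H2-Q7 had 0 counts in T-ND replicate 3, T-D replicate 3 and T-D replicate 4, and 34.7 to 218 normalized counts in the other 11 libraries. In the same 3 libraries H2-Q6 was at 3.81 to 6.29, against 29.02 to 324 elsewhere, and the pseudogene H2-T11-ps was at 26.2 to 38.6, against 117 to 380 elsewhere. H2-T22 and H2-T13 went the other way, with 2240 to 6757 and 143 to 263 normalized counts in those 3 libraries and at most 1804 and 115 in the others. The call of H2-Q6 in PT-D vs T-ND thus includes T-ND replicate 3, which had 6.29 normalized counts, and its groups did not overlap with or without that library.

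**Figure D4:**
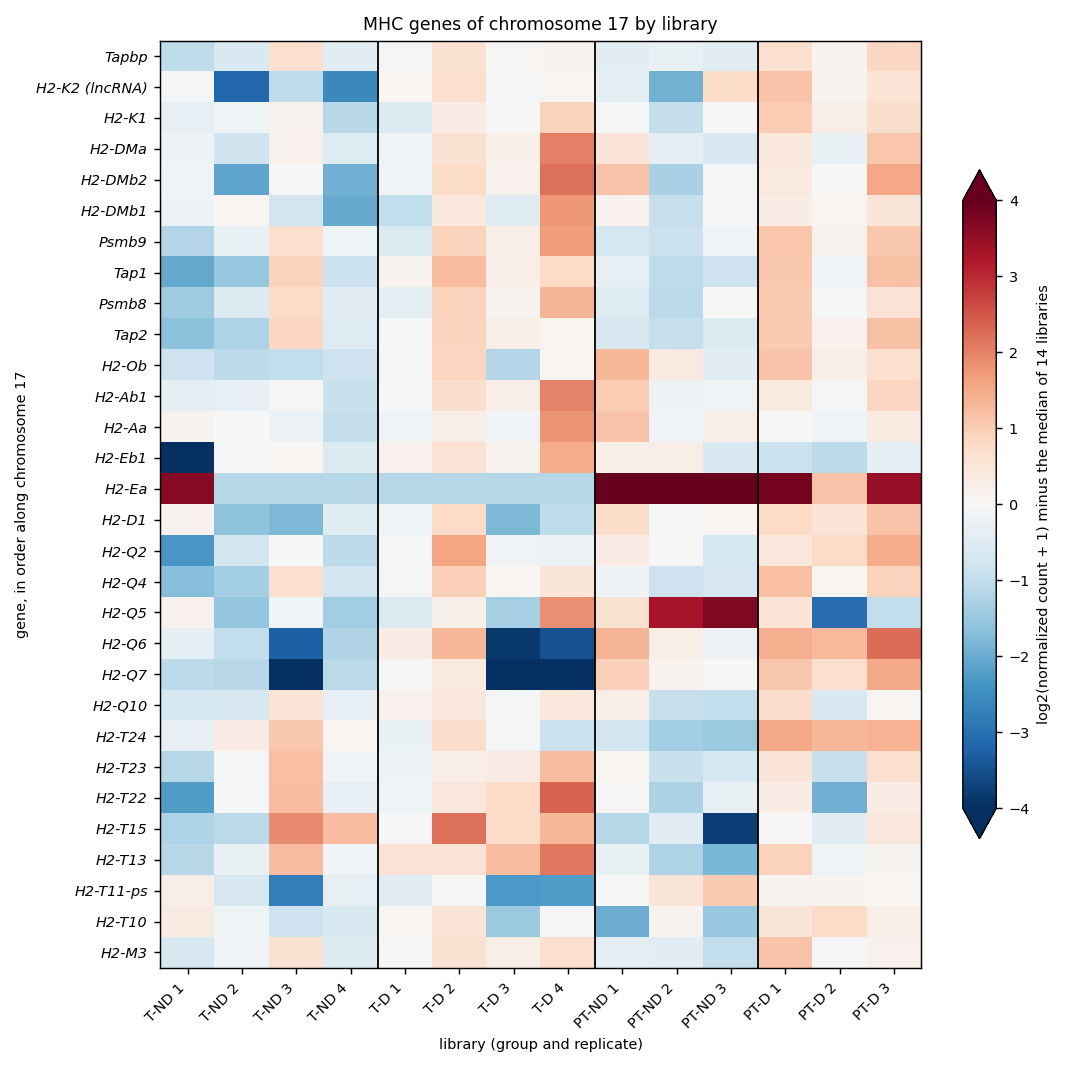
Log2(normalized count + 1) minus the median of the 14 libraries, as colour, for members on chromosome 17 that were examined in full and reached 50 normalized counts in a library, in their order along the chromosome (rows) and by library (columns). H2-Ea is above its median in the 6 preterm libraries and T-ND 1 and at 0 counts in the other 7 term libraries, H2-Q6, H2-Q7 and H2-T11-ps are low in T-ND 3, T-D 3 and T-D 4, and H2-Eb1 is low in T-ND 1.

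The 2 classical heavy chains were not expressed in a fixed proportion. H2-D1 had 12332, 3675, 3173 and 8024 normalized counts in T-ND, 10318, 18766, 3198 and 5542 in T-D, 18521, 10652 and 11622 in PT-ND and 19201, 15815 and 24363 in PT-D. The ratio of H2-D1 to H2-K1 was 0.62 and 0.43 in T-ND replicates 2 and 3 and 0.48 and 0.44 in T-D replicates 3 and 4, and it was 1.43 to 3.11 in the other 10 libraries, all 6 preterm libraries included. No library lay between 0.62 and 1.43. The log2 fold changes of H2-D1 between preterm and term groups therefore include libraries of both kinds in the term groups and of 1 kind in the preterm groups.

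**Figure D5:**
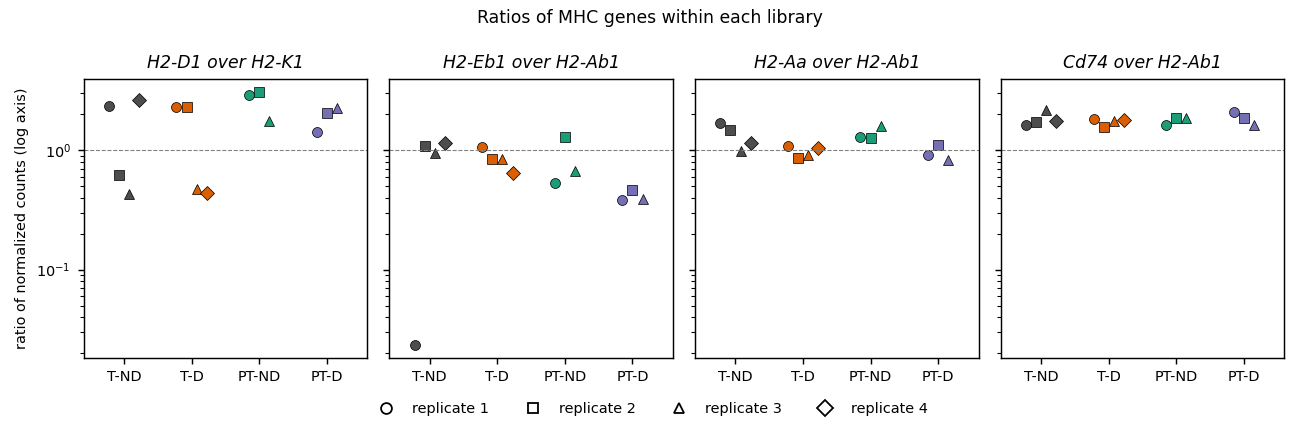
Ratio of normalized counts of gene pairs within each library (vertical log axis), by group, 1 point per mouse with its replicate number as the shape and a dashed line at 1. H2-D1 over H2-K1 falls into values up to 0.62 and values from 1.43, H2-Eb1 over H2-Ab1 is 0.02 in T-ND replicate 1, and Cd74 over H2-Ab1 stays between 1.57 and 2.19.

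Reads were aligned to a single reference genome, and whether alleles that differ from it lost reads was not tested. Of the windows of 100 bases along the H2-Q6, H2-Q7 and H2-D1 transcripts, 20.6%, 18.0% and 12.7% occurred in another gene too, where a read may not map uniquely, whereas H2-T24 had none. The share was 17.9% for H2-Q4 and higher for H2-T10, H2-T13 and H2-T22, at 29.8%, 34.2% and 35.9%. The H2-T7 and H2-K2 pseudogene transcripts were shared over 88.4% and 86.7% of their windows, so their low levels are uncertain. Because the libraries carry no strand, reads on overlapping genes of opposite strands were left uncounted. With strand columns added together, the totals of Psmb8, Tap2 and H2-Q4 were 2.55, 2.15 and 1.55 times those used here.

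Across the 14 libraries, levels on the log2 scale were compared between pairs of genes in 18 relations, with two-sided permutation tests of 100000 resamples and Benjamini-Hochberg adjustment over the 18. H2-Ab1 went with Cd74 (Pearson r = 0.98, adjusted permutation p of 6.0e-05; Spearman rho = 0.99, adjusted permutation p of 9.0e-05), and r was 0.96 without T-D replicate 4 and PT-ND replicate 1, the libraries farthest from the median of H2-Ab1. With H2-DMa, r was 0.93 (adjusted permutation p of 6.0e-05) and rho 0.91, and r was 0.88 without those libraries. With H2-Eb1, r was 0.47 (adjusted permutation p of 0.141) and rho 0.53, while r was 0.30 without those libraries and 0.64 without T-ND replicate 1. With Ciita, r was 0.60 (adjusted permutation p of 0.0507) and rho 0.79 (adjusted permutation p of 0.00299), and r was 0.88 without the farthest libraries.

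For class I, B2m went with H2-K1 (r = 0.83, adjusted permutation p of 0.00021; rho = 0.96, adjusted permutation p of 9.0e-05). It also went with Psmb8 (r = 0.89; rho = 0.94) and Psmb9 (r = 0.89; rho = 0.91), each with an adjusted permutation p of 9.0e-05 or less. Without T-D replicate 4 and T-ND replicate 4, the libraries farthest from the median of B2m, r was 0.83, 0.97 and 0.95 for the 3 genes. As deviations from the group means, r was 0.86, 0.85 and 0.89. With H2-D1, r was -0.06 (adjusted permutation p of 0.836) and rho 0.23 (adjusted permutation p of 0.491), while r was 0.14 without those 2 libraries and -0.34 as deviations from the group means.

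Genes that control class I were compared from a list of 8, of which 7 were measured and Ifng had a total at or under 10 counts. In PT-D vs PT-ND 2 of the 7 were DEGs and higher, beside 2.96% of all genes tested. By adjusted p alone 3 passed, beside 12.9% of all genes, and the median log2 fold change of the 7 was 0.54. Nlrc5, the class I transactivator, had 1712, 633 and 1349 normalized counts in PT-D and 234, 102 and 257 in PT-ND. The groups were well apart, with a log2 fold change of 2.64 ± 0.39 (SE) and an adjusted p of 0.0046. Irf2, a member of the interferon regulatory factors, had a log2 fold change of 1.63 (adjusted p of 0.00214). Nlrc5 in the term mice had 113, 147, 793 and 292 normalized counts in T-ND and 368, 994, 534 and 551 in T-D, so T-ND replicate 3 was high for it as it was for Tap1. For Irf1, which can induce the same genes, the values were -0.01 in PT-D vs PT-ND (adjusted p of 0.991) and 1.37 in T-D vs T-ND (adjusted p of 0.0523 in edgeR and 4.6e-06 in DESeq2).

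Of 10 genes for class I peptides and assembly, 2 were DEGs and higher in PT-D vs PT-ND, beside 2.96% of all genes tested. These were Erap1, which trims peptides in the endoplasmic reticulum (log2 fold change of 1.16, adjusted p of 0.0157), and Tapbpl, a tapasin relative (1.18, adjusted p of 0.0317). The constitutive proteasome subunits Psmb5, Psmb6 and Psmb7, which the immunoproteasome subunits replace, belong to the 8 that were not DEGs. Their log2 fold changes were -0.61, -0.46 and -0.49. The adjusted p values were 0.0865, 0.0820 and 0.0673 in edgeR and 0.0451, 0.0357 and 0.0274 in DESeq2. In the interaction Psmb5 was a DEG at -1.04 (adjusted p of 0.0366, edgeR) and Canx of the same list at 1.28 (adjusted p of 0.0278, edgeR). Of 10 genes that control class II (Rfx5, Rfxap, Rfxank, the NF-Y subunits, Creb1, Irf4, Irf8 and Spi1), none was a DEG in any of the 6 comparisons. In PT-D vs PT-ND 1 passed by adjusted p, beside 12.9% of all genes tested. Of 6 genes for class II peptides and turnover, 1 was a DEG in that comparison, Marchf1, which was higher (log2 fold change of 1.15, adjusted p of 0.0173 in edgeR). Marchf1 was also a DEG in the interaction (1.62, adjusted p of 0.0479 in edgeR). Among 6 other class I like molecules, Fcgrt, the neonatal Fc receptor that recycles IgG and albumin, was a DEG and lower in PT-D than in each other group. Its levels were 2126, 2592 and 2094 normalized counts in PT-D, 5001, 3278 and 6596 in PT-ND, 5750, 5710, 7291 and 8081 in T-D and 4146, 4629, 5768 and 6014 in T-ND. The log2 fold changes were -1.13 against PT-ND (adjusted p of 0.0132), -1.57 against T-D (adjusted p of 0.0093) and -1.19 against T-ND (adjusted p of 0.0182). Azgp1 of the same list was a DEG and higher in PT-D vs PT-ND (adjusted p of 0.0315 in edgeR and 0.0847 in DESeq2) and passed in the interaction (adjusted p of 0.0301 in edgeR). It had 153, 0 and 92.0 normalized counts in PT-D and 0 in all 3 PT-ND libraries, so the groups overlapped at 0, and 152, 508, 0 and 0 in T-ND against 0, 0, 0 and 2.57 in T-D.

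Markers of other cells moved in part with these groups. Ptprc, the pan-leukocyte gene, had a log2 fold change of 0.94 against PT-ND (adjusted p of 0.0469) and of 1.10 against T-ND (adjusted p of 0.0401) in PT-D, while Cd52, Coro1a and Laptm5 of the same list did not pass in either. The 4 leukocyte markers summed to 834 to 961 normalized counts in PT-D, 605 to 1137 in PT-ND, 672 to 931 in T-D and 426 to 746 in T-ND. PT-D thus overlapped with PT-ND and T-D but not with T-ND. Macrophage markers (8 genes) summed to 1782 to 2811 in PT-D and 3080 to 3291 in PT-ND, while Adgre1 and Cx3cr1 among them were higher in PT-D, with log2 fold changes of 1.07 and 1.97 and adjusted p values of 0.0224 and 0.0349. Endothelial markers (5 genes) summed to 5775 to 6627 in PT-D and 3060 to 5507 in PT-ND, and Cdh5 and Kdr were DEGs with log2 fold changes of 1.37 and 1.15. The log2 fold change was positive for 3 of the 5 and negative for 2, with a median of 0.40. Emcn and Tek had lower means in PT-D than in PT-ND, at 1129 against 1377 and 409 against 510. Kidney epithelial markers (11 genes) summed to 172687 to 177285 in PT-D and 199670 to 207615 in PT-ND. Of the 11, 4 had a positive and 7 a negative log2 fold change. The podocyte gene Nphs1 was a DEG and higher, with 1207, 907 and 862 normalized counts in PT-D and 665, 370 and 423 in PT-ND.

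Markers of dendritic cells (7 genes) summed to 300 to 374 normalized counts in PT-D and 226 to 539 in PT-ND. Zbtb46 alone had 199 to 295 in PT-D. In PT-D vs PT-ND 5 of the 7 had a negative log2 fold change. Cd209a was a DEG and lower (-3.66, adjusted p of 0.0268 in edgeR), with 0, 8.28 and 4.80 in PT-D and 125, 23.8 and 25.4 in PT-ND. Markers of T and NK cells (7 genes) summed to 130 to 171 in PT-D and 59.998 to 198 in PT-ND. Those of B cells (6 genes) summed to 10.5 to 66.7 in any library, with 4 of the 6 genes at or near 0 on average. H2-Ab1 and Ptprc had an r of 0.31 (adjusted permutation p of 0.364) and a rho of 0.48, with r at 0.73 without the 2 libraries farthest from the median of H2-Ab1. For Itgax, a dendritic cell gene, r was 0.47 (adjusted permutation p of 0.141) and 0.65 without those libraries, and for Adgre1 it was 0.39 (adjusted permutation p of 0.235) and 0.57. For Csf1r, another macrophage gene, r was -0.15 (adjusted permutation p of 0.672) and rho -0.38, with r at -0.50 without those libraries. For the B cell gene Cd79a r was -0.14, and for the T cell gene Cd3e it was -0.26. The part of these cells in the changes of the member genes was not tested.

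The members not described above were low. H2-Q1, H2-Q10 and H2-M2 reached at most 96.7, 83.0 and 64.6 normalized counts, and the lncRNA H2-K2 reached 125. H2-T15 had 0 counts in PT-ND replicate 3 and 62.1 normalized counts in T-D replicate 2. H2-T3, H2-T5, H2-M5 and the pseudogene of H2-K2 reached at most 21.998 normalized counts, H2-T7 14.2, and the genes with no counts in any library included H2-Pa, H2-Pb, H2-T9 and most of the H2-M10 genes.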

How the data were processed

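Members and lists were chosen with earlier results of these data known. Per the labels and the study's methods, RNA of the whole left kidney was made into un-stranded poly(A) libraries, and the authors aligned reads with STAR to GRCm39. The deposited counts are uniquely mapped reads per gene (GENCODE M36) without regard to strand; the strand columns served only as a check. Gene names and transcripts came from GENCODE M39, with 56236 of 56980 identifiers matched. One gene of the class I control list is not reported here. Totals and unassigned reads entered no library size.

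A pairwise comparison was fitted in edgeR on the libraries of both groups (version 4.0.16, R 4.3.3, TMM factors, total above 10 counts over the 14 libraries, quasi-likelihood test, two-sided), and the interaction on all 14. DESeq2 1.42.0, other scaling, other filters, the name suffix of the libraries as a covariate, a replicate block and leaving out each library were alternatives. The tests were checked on simulated counts. Correlations used log2(normalized count + 1) and scipy 1.17.1.

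Values were given in full for 36 members: the classical class I and II genes, H2-DM, H2-O, Cd74, Ciita, B2m and the loading genes, any DEG, any gene whose mean reached 50 normalized counts, and any whose highest library reached 50 and was at least 20 times its lowest after adding 1 to both. The floor for a gene without counts was 3 counts per library. Replicate numbers did not pair the mice: correlations of same-numbered libraries' deviations ranged from -0.28 to 0.30. Standard errors came from the edgeR fit and take in the spread between mice, whereas the floor covers counting error only.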

Additional observations from a re-analysis of the deposited data

Results flagged for a closer look

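In groups of 4 mice, single libraries stood far from the other 3 in 6 of the 71 sets of values examined by Dixon's ratio, where chance gives about 1 in 20. T-D replicate 4 was far above the other T-D libraries for H2-Aa, at 6846 normalized counts against 1736 to 2331, and for Cd74, at 11771 against 2932 to 4254. T-D replicate 2 was above the others for H2-Q2, at 138 against 38.6 to 46.4, and for the lncRNA H2-K2, at 89.0 against 54.1 to 60.02. In T-ND, replicate 1 had 26.1 normalized counts of H2-Ea while the others had 0, and replicate 3 had 0 of H2-Q7 while the others had 34.7 to 35.6. The STZ effect differed between preterm and term mice for 2 members: for H2-T24 the difference on the log2 scale was 2.99 (adjusted p of 0.0114, edgeR), and for H2-Q5 it was -5.00 (adjusted p of 0.0492, edgeR). These 2 of 43 members stand beside 4.45% of all genes tested, and H2-Q5 passed in 3 of 14 fits with a library left out, with an adjusted p of 0.0579 (edgeR) with the library name suffix as a covariate and 0.105 (edgeR) with the replicate block.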

How the results depend on the processing

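No result changed direction as a call. Shares of all genes were counted in the main edgeR fits only. Member counts from DESeq2, from other settings and from fits with a library left out stand without such a share. The number of members called as DEGs was 2 in PT-D vs T-ND, and it was 8 with DESeq2, 7 without a filter on low counts, 0 when all 14 libraries entered 1 fit and 0 with the replicate block. In PT-D vs T-D it was 0, and 2 with DESeq2, 7 without a filter and 1 in the fit of all 14 libraries. In T-D vs T-ND it was 0, and 2 with DESeq2. In PT-D vs PT-ND it was 10, and 3 in the fit of all 14 libraries; the block gave 14. In PT-ND vs T-ND it was 0, and 2 with DESeq2, 3 without a filter and 1 with the name suffix as a covariate. The interaction gave 2, and 1 with the suffix as a covariate or with the replicate block; H2-T24 stayed a DEG in all 7 alternatives. Leaving out 1 library at a time gave 0 to 15 members in PT-D vs T-ND, 0 to 2 in PT-D vs T-D, 0 to 3 in T-D vs T-ND, 4 to 14 in PT-D vs PT-ND, 0 to 1 in PT-ND vs T-ND and 1 to 2 for the interaction. The highest counts came without T-ND replicate 3 (15 and 3), T-D replicate 4 (2) and PT-D replicate 2 (14). The causes were not tested, other than the number of samples or genes that each fit holds. RLE and upper quartile scaling gave 9 in PT-D vs PT-ND, filterByExpr 8, and the counts given first in the other comparisons. As deviations from the group means, r fell from 0.47 to 0.25 for H2-Ab1 with H2-Eb1, from 0.75 to 0.56 for B2m with Tap1 and from 0.65 to 0.51 for B2m with Nlrc5, and it changed sign for H2-Ab1 with Cd79a (-0.14 to 0.08) and Csf1r (-0.15 to 0.24), neither of which had passed; with Cd3e it was -0.36 in place of -0.26. The relation of H2-Ab1 with H2-Eb1 without T-ND replicate 1 (0.64) was added after the data were seen.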
